A study of Mus musculus with 6 samples.

Results

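Antibody light chains are built in B-lineage cells by joining 1 variable (V) segment to a joining segment upstream of a constant region, so V segments are read mostly from the joined genes of such cells. In the mouse most light chains are kappa, with V segments spread over a long locus on chromosome 6, and the small lambda locus lies on chromosome 16. Plasma cells, the antibody-secreting end stage of the lineage, hold far more light chain RNA per cell than resting B cells, and macrophages are not known as a usual source of it. The genes described here are the Igkv and Iglv rows of the deposited table whose 6 read counts sum to at least 10. Of 163 Igkv and Iglv rows among 56691 genes, 93 met this minimum, 91 of them kappa and 2 lambda (Iglv1 and Iglv2).

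The libraries came from Kupffer cells (Kuffer cells in the labels), the macrophages that line the sinusoids of the liver. There were 3 libraries from 5-HT treated (serotonin) samples and 3 from untreated samples. All 6 carried the genotype Vil1Cre-Myd88fl/fl, in which Cre under the Vil1 promoter, active in intestinal epithelium, acts on a floxed Myd88 allele, so the untreated samples carry it too and no Cre-negative group was analysed here. Strain, age, dose, route, duration, the cell isolation, the number of animals per library and whether mice or isolated cells were treated are not stated in the labels. Nothing there says that replicates are separate animals, so p-values cover the spread among the 6 libraries, part of which may be technical. Gene counts summed to 15982366, 15390956 and 17093251 reads in 5-HT treated replicates 1 to 3 and to 18187617, 18235766 and 19050039 reads in untreated replicates 1 to 3.

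The 70 rows below the minimum comprised 52 without a read in any library and 18 with 1 to 9 reads. The rows just inside it were Igkv4-73 with 10 reads and Igkv4-78 and Igkv14-130 with 11 reads each. Just outside it were Igkv4-81 with 9 reads, Igkv8-18 with 7 and Igkv1-108 with 6. The median segment had 235 reads over the 6 libraries. GENCODE M21 (GRCm38) annotates 90 of the 93 as V genes and 3, Igkv4-77, Igkv4-73 and Igkv2-116, as V pseudogenes, whereas all 163 rows comprise 103 V genes and 60 pseudogenes. Exonic lengths ran from 338 to 501 bases, with a median of 363.

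The 3′ ends of the V exons of 9 segments are printed for reference, and no count or test was computed from these ends. They are the 5 with the highest mean shares of light chain V reads, the 3 called segments with the largest change or the steadiest call, and the segment with the lowest change. Each run is the coding strand, 5′ to 3′, of the GENCODE M21 transcript on GRCm38, and the capitals mark the codon of the conserved cysteine that precedes CDR3, the hypervariable loop where V meets J. The bases after it are the germline start of CDR3.
Iglv1: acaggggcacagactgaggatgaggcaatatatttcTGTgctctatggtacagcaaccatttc
Igkv1-117: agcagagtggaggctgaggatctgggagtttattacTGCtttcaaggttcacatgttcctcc
Igkv1-110: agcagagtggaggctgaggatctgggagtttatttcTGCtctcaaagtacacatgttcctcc
Igkv15-103: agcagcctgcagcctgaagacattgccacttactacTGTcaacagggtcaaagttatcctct
Igkv10-96: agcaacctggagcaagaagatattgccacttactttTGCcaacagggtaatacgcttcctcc
Igkv1-122: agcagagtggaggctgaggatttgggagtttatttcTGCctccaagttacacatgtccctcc
Igkv8-28: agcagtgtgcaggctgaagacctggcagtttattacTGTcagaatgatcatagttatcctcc
Igkv8-24: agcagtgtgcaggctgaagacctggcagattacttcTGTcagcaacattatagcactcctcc
Igkv14-126: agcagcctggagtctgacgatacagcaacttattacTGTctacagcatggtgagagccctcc

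The runs lie at chr16:19085017-19085079 (minus strand) for Iglv1, chr6:68121766-68121827 (plus) for Igkv1-117, chr6:68271206-68271267 (plus) for Igkv1-110 and chr6:68437864-68437925 (plus) for Igkv15-103. Those of Igkv10-96 and Igkv1-122 lie at chr6:68631963-68632024 (minus) and chr6:68017427-68017488 (plus). Those of Igkv8-28, Igkv8-24 and Igkv14-126 lie at chr6:70143593-70143654 (minus), chr6:70216858-70216919 (minus) and chr6:67896581-67896642 (plus). The Igkv1 runs are nearly the same up to the cysteine and part after it. Over their whole transcripts Igkv1-117 and Igkv1-110 matched at 97.5% of 401 aligned bases, with 10 mismatches, while Igkv1-122 was 93.2% identical to Igkv1-117 and 94.0% identical to Igkv1-110. Such likeness limits how surely a read is given to 1 segment. Of the 93 segments, 16 had another light chain V transcript at least 97% identical over at least 250 aligned bases, and 48 had one at least 95% identical, so single-segment values within those groups are uncertain.

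Light chain V reads made up a larger part of every 5-HT treated library than of any untreated one. They numbered 6932, 14989 and 3950 in 5-HT treated replicates 1 to 3, against 2626, 3194 and 3494 in untreated replicates 1 to 3. As CPM, which scales reads to the library's total gene count, this was 434, 974 and 231 with 5-HT, against 144, 175 and 183 without. The treated libraries lay apart from the untreated ones but spread much more widely, averaging 546 ± 384 CPM in 5-HT treated and 168 ± 20.6 CPM in untreated libraries (SD, n = 3 each). The ratio of the means was 3.26, or 1.70 on the log2 scale, and it was 1.98 without 5-HT treated replicate 2, the library with the highest total.

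Kappa and lambda segments differed in how clearly the groups parted. Kappa V reads stood at 388, 876 and 198 CPM with 5-HT, against 133, 134 and 157 CPM in untreated libraries, with no overlap. Lambda V reads stood at 45.7, 98.0 and 33.3 CPM with 5-HT, against 11.7, 40.9 and 26.4 CPM in untreated libraries, and there 5-HT treated replicate 3 lay below untreated replicate 2. As a share of light chain V reads, lambda took 10.5%, 10.1% and 14.4% with 5-HT, against 8.11%, 23.3% and 14.4% in untreated libraries. These shares overlapped, and untreated replicate 2 had the highest.

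Constant region reads allow the V segment reads to be set against the chains they belong to. Igkc, the kappa constant region that every kappa transcript carries, had 1215, 2809 and 641 FPKM, a level corrected for exonic length and library size, with 5-HT, against 357, 388 and 483 FPKM in untreated libraries. The groups did not overlap, but the log2 change of 1.93 ± 0.48 (SE) did not pass the threshold of 0.05 in edgeR's quasi-likelihood test (adjusted p = 0.0548). Kappa V reads per Igkc read were 0.60, 0.586 and 0.580 with 5-HT, all below the 0.699, 0.650 and 0.611 of untreated libraries. Lambda V reads per Iglc read were 1.01, 1.01 and 1.17 with 5-HT, against 0.60, 1.13 and 0.457 in untreated libraries, and overlapped.

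B cell markers, unlike the V segment totals, overlapped between the groups, while 5-HT treated replicate 2 was the highest library in both. Summed over 16 genes that mark B cells in general, their reads gave 72.7, 158 and 36.1 FPKM with 5-HT, against 103, 82.0 and 124 FPKM in untreated libraries. None of the 16 passed the test in either direction, 11 had a negative log2 change, the median change was -0.22 (-0.02 over all tested genes), and none was at 0 in all libraries. The most abundant were the antigen receptor subunits Cd79a and Cd79b, with Cd37 and Fcmr. Per B cell marker read there were 1.78, 1.98 and 1.92 light chain V reads with 5-HT, against 0.456, 0.654 and 0.470 in untreated libraries. This ratio was close among the treated libraries, although their V read totals were far apart, and its groups did not overlap. In bulk RNA a change in the number of cells of a type and a change in RNA per cell cannot be told apart.

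**Figure D1:**
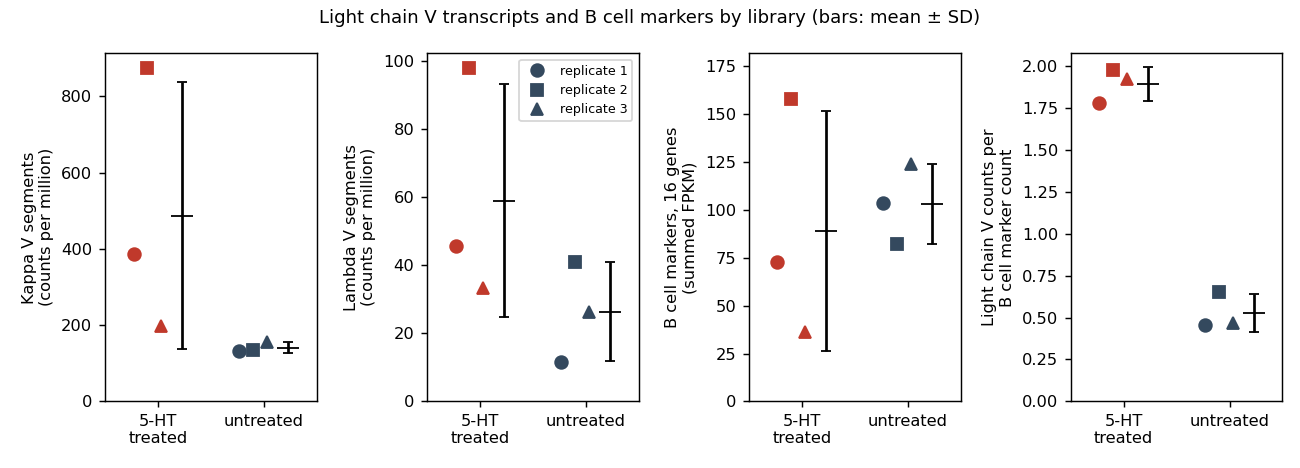
Kappa V and lambda V reads (CPM), summed FPKM of 16 B cell markers, and light chain V reads per B cell marker read in each library; symbols are replicates, red for 5-HT treated and dark blue for untreated, and bars are the mean ± SD (n = 3 each). The ratio in the last panel sits at 1.78 to 1.98 with 5-HT and at 0.456 to 0.654 in untreated libraries, while lambda V reads and B cell markers overlap between the groups.

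Plasma cell markers mostly had a positive change, but few passed the test. Of 15 tested, 13 had a positive and 2 a negative log2 change, with a median of 0.35. In the test 2 of the 15 were higher with 5-HT and none lower, where 4.55% of all 16641 tested genes were higher and 3.19% lower. The 2 were Xbp1, the transcription factor of the secretory programme (log2 0.65 ± 0.12, adjusted p = 0.0187), and Sdc1, a syndecan on plasma cells and also on liver epithelium (0.52 ± 0.12, adjusted p = 0.0438), and their calls were lost under 3 and 9 of 16 alternatives. Jchain, which links IgA and IgM into polymers, had 120, 257 and 68.3 FPKM with 5-HT, against 33.4, 47.4 and 88.0 FPKM in untreated libraries. Its groups overlapped and it did not pass (log2 1.40 ± 0.52, adjusted p = 0.156). The other most abundant markers of the list, Cd38 and Txndc5, did not pass either. The summed list stood at 380 to 600 FPKM in 5-HT treated libraries, against 310 to 364 FPKM in untreated ones, with no marker at 0 throughout. Of this sum Cd38 alone gave 162 to 199 FPKM with 5-HT and 161 to 178 FPKM in untreated libraries. The part of B cells or plasma cells in the V segment values was not tested.

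Within each library the segment ranking was led by few segments. Iglv1, the main lambda V segment, and Igkv1-117 shared the first rank. Igkv1-117 came first in 5-HT treated replicate 1 with 7.63% of light chain V reads (95% Wilson interval 7.03 to 8.28), and Iglv1 came first in 5-HT treated replicates 2 and 3 with 8.19% (7.76 to 8.64) and 12.9% (11.9 to 13.9). In untreated replicate 1, Igkv1-117 led with 8.68% (7.66 to 9.82). Iglv1 led untreated replicates 2 and 3 with 21.2% (19.8 to 22.7) and 13.7% (12.6 to 14.9). These intervals cover counting error only, and reads without molecular identifiers are not independent molecules.

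The leading segments below the first rank differed between libraries. The second was Igkv2-109 (7.47%) in 5-HT treated replicate 1 and Igkv1-117 in replicates 2 (5.37%) and 3 (10.8%). In untreated libraries it was Iglv1 (7.69%) in replicate 1, Igkv1-110 (15.7%) in replicate 2 and Igkv15-103 (7.41%) in replicate 3. Igkv1-117, Igkv15-103 and Iglv1 were the 3 segments among the top 10 of all 6 libraries, whereas 25 segments reached the top 10 of at least 1 library and 12 did so in 1 library only.

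**Figure D2:**
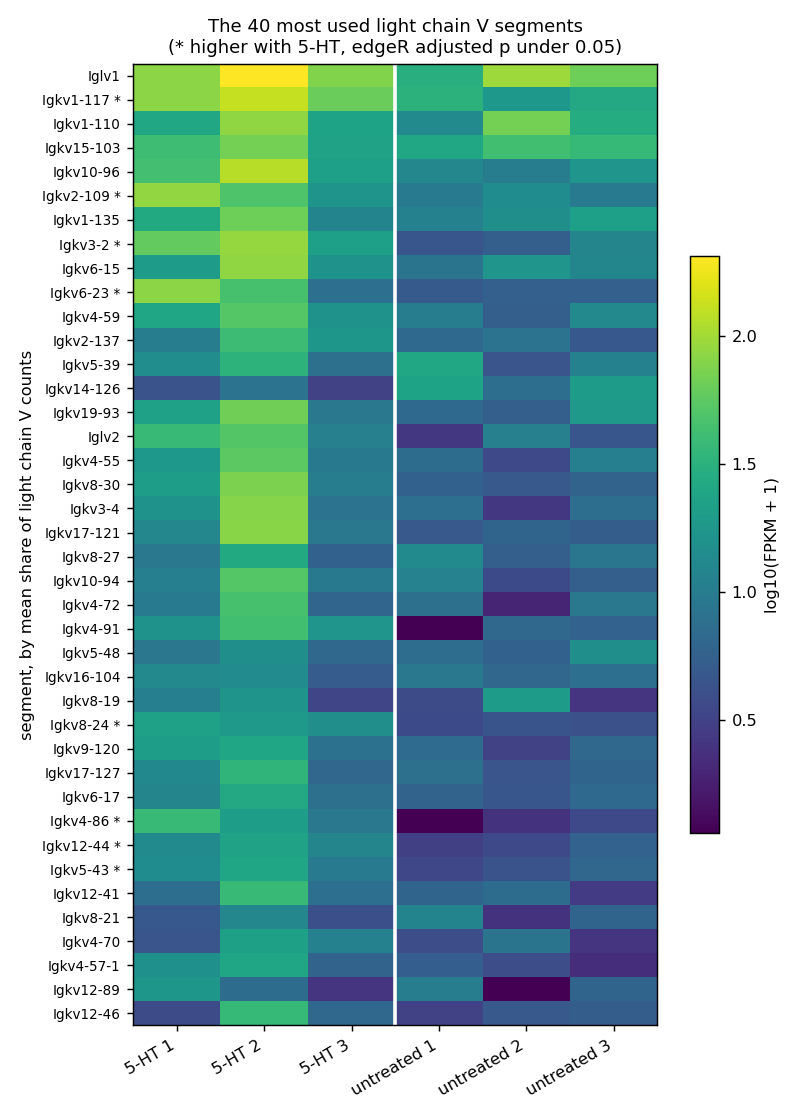
Level of the 40 segments with the largest mean share of light chain V reads, as the log10 of FPKM + 1 on the colour scale, in each library, with 5-HT treated libraries left of the white line and untreated ones right of it; an asterisk marks an adjusted p under 0.05. Iglv1 reaches 204 FPKM in 5-HT treated replicate 2, and Igkv14-126 is brighter in untreated replicates 1 and 3 than in any treated library.

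By some measures, though not by all, the reads were spread over more segments with 5-HT. The 5 leading segments held 34.5%, 24.9% and 34.8% of light chain V reads with 5-HT, against 34.0%, 53.8% and 37.1% in untreated libraries, and the groups overlapped. It took 10, 15 and 11 segments to reach 50% of the reads with 5-HT, against 11, 5 and 9 in untreated libraries. The effective number of segments, the exponential of the Shannon entropy of the shares, was 43.4, 54.7 and 42.6 with 5-HT, against 40.8, 24.8 and 39.9 in untreated libraries. Its means were 46.9 ± 6.75 with 5-HT and 35.2 ± 8.97 without (SD, n = 3 each). The groups did not overlap, but the lowest treated and highest untreated values were close, and the difference of 11.8 became 6.59 without untreated replicate 2. The difference was likewise 11.8 over all Igkv and Iglv rows, without a minimum, and 10.4 over segments with at least 100 reads. However, 21 segments reached the minimum of 10 reads through the treated libraries alone. The effective number was computed neither at equal depth nor over the segments with at least 10 untreated reads. The part of depth and of the minimum in its separation was therefore not tested. The inverse Simpson index, which weighs the leading segments more, overlapped, with 28.5, 38.7 and 23.7 with 5-HT, against 28.1, 11.4 and 23.1 in untreated libraries.

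Depth sets how many rare segments appear. Of the 93 segments, 91, 92 and 88 had a read with 5-HT, against 76, 79 and 85 in untreated libraries. Reduced by calculation to 2626 light chain V reads per library, the lowest total, the expected numbers were 85.1, 87.1 and 85.8 with 5-HT, against 76.0, 78.1 and 83.5 in untreated libraries. The groups did not overlap at equal depth, but the minimum of 10 reads bears on this: 21 of the 93 segments had at least 10 reads in the treated libraries alone and under 10 in the untreated ones, and no segment had the reverse. Over all Igkv and Iglv rows, without a minimum, the expected numbers at 2633 reads were 89.2, 89.4 and 89.3 with 5-HT, against 80.0, 80.6 and 86.9 in untreated libraries. Over the 69 segments with at least 10 untreated reads, a choice that tilts the other way, the groups overlapped at 2600 reads, with 67.4, 68.8 and 67.0 with 5-HT, against 67.0, 67.7 and 68.7 in untreated libraries. A segment with no read in a library may hold a share of up to 0.0433%, 0.0200% and 0.0759% in 5-HT treated replicates 1 to 3, and up to 0.114%, 0.0939% and 0.0859% in untreated replicates 1 to 3 (3 reads of the total).

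**Figure D3:**
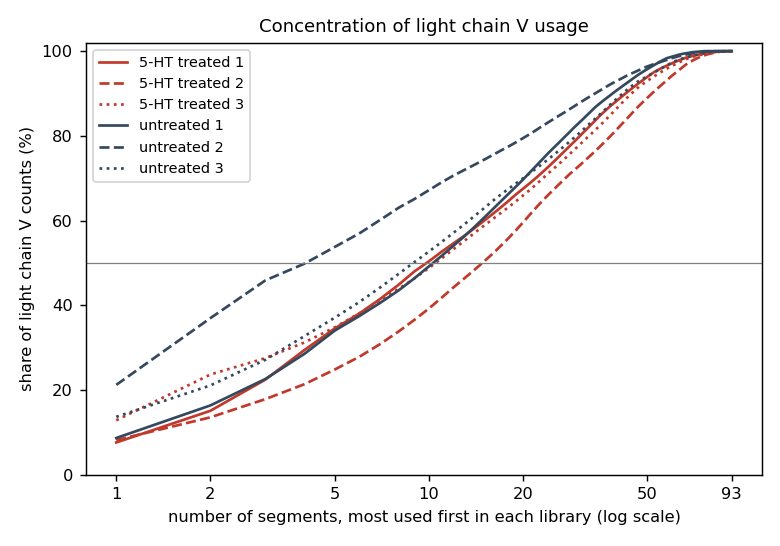
Cumulative share of light chain V reads (percent) against the number of segments counted, most used first in each library (log axis), with 1 line per library, red for 5-HT treated and dark blue for untreated, and a grey line at 50%. The line of untreated replicate 2 climbs fastest, with 53.8% in its first 5 segments, and that of 5-HT treated replicate 2 slowest, with 24.9%.

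Segment rankings were similar in all pairs of libraries, though less so between the groups in 5 of 9 pairs, whose rho lay below the lowest within a group. Over the 93 segments, Spearman's rho between libraries ran from 0.771 to 0.848 for the 3 treated pairs, from 0.642 to 0.834 for the 9 pairs of a treated with an untreated library and from 0.749 to 0.824 for the 3 untreated pairs. These are descriptions across segments that share a library and near-identical sequence. The usage that 2 libraries had in common, the sum of the lower share of each segment, was 71.6% to 75.6% within treated, 53.9% to 72.6% between groups and 58.9% to 73.9% within untreated pairs.

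The change was spread over the segments. By mean FPKM, 90 of the 93 segments were higher in 5-HT treated libraries and 3, Igkv14-126, Igkv7-33 and Igkv4-73, were lower. This count is tilted upward by the minimum, which 21 segments reached through the treated libraries. Of the 69 with at least 10 untreated reads, 67 were higher, and of all 22545 genes with at least 10 reads over the 6 libraries 46.4% were higher by mean CPM. Without 5-HT treated replicate 2, 72 of the 93 were higher. Every treated library lay above every untreated one for 42 of the 93 segments (45.2%), where this held for 15.5% of all 16641 tested genes, and the reverse held for none, against 14.5% of tested genes. The other 51 overlapped. The 42 include 7 segments that were not tested, whereas those gene shares cover tested genes only. Among the 69 segments with at least 10 untreated reads, every treated library lay above every untreated one for 31. Of the 22545 genes with at least 10 reads this held for 13%. Without 5-HT treated replicate 2 the count was 43, against 20.1% of tested genes. The segments share reads of the same libraries, and 5-HT treated replicate 2 held the highest value of 74 segments, 5-HT treated replicate 1 that of 11, 5-HT treated replicate 3 that of 2, and an untreated library that of 6.

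Few single segments passed the test across all genes. Of the 93 segments, 68 were tested in edgeR's quasi-likelihood test, so the other segments could not be called. Of the 93, 13 (14.0%) were higher with 5-HT at an adjusted p under 0.05, where 4.55% of all 16641 tested genes were higher. No segment was lower, where 3.19% of tested genes were lower, so that 7.74% of all tested genes were called in either direction. These gene shares cover tested genes only, whereas the 93 include segments that were not tested. Among the 13, Igkv1-122, Igkv9-123 and Igkv4-80 had under 10 untreated reads, so they reached the minimum of 10 through the treated libraries. In the test 44 segments had an unadjusted p under 0.05, a count given without its share over all genes. DESeq2 called 36 segments higher and 1 lower, with 1241 higher and 1018 lower among the 15990 genes it tested. The filter on low counts left out 25 of the 93, with up to 222 reads. Fitted without that filter, the median log2 change of all 93 segments was 2.05, against -0.03 over the 31731 genes then fitted, with 38 segments higher and 1, Igkv14-126, lower. Of those 31731 genes 917 were higher and 715 lower. For 3 segments without an untreated read the fitted value is no measure of size, and with these at a bound from 3 reads over the untreated group the median was likewise 2.05. The median was 1.95 over the 69 segments with at least 10 untreated reads and -0.02 over the 22545 genes that met the same minimum of 10 reads as the segments. With all 6 libraries 1288 genes and 13 segments were called. Segment calls became 11 without 5-HT treated replicate 2, where 1174 genes were called. They became 8 higher and 1 lower without untreated replicate 2 (1337 genes). They moved further without other libraries, to 5 without 5-HT treated replicate 1 (566 genes) and 28 without 5-HT treated replicate 3 (1168 genes). They became 1 without untreated replicate 1 (336 genes) and 3 without untreated replicate 3 (339 genes).

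Neutrophil and Kupffer cell markers also differed between the groups. Their counts stand beside the 4.55% of all tested genes that were higher and the 3.19% that were lower. Of 7 tested neutrophil markers 6 were higher with 5-HT and none lower (S100a8, S100a9, Csf3r, Mmp8, Mmp9 and Cxcr2), with a median log2 change of 1.91. The Mmp9 call was lost under 8 of 16 alternatives, that of S100a9 under 4 and the others under 2 each. Retnlg, another of the most abundant, did not pass. Their summed FPKM was 481, 922 and 352 with 5-HT, against 171, 136 and 167 in untreated libraries, and was highest in 5-HT treated replicate 2, as were the light chain V totals. Of 10 Kupffer cell markers 2, Adgre1 and Marco, were higher and none lower, with calls lost under 3 and 9 of 16 alternatives, and the sum was 1541 to 1789 FPKM with 5-HT, against 971 to 1349 FPKM in untreated libraries. The most abundant of them were Cd5l, C1qb, Clec4f and C1qa, so the defining markers of the labelled cell type were present. Markers of liver endothelium summed to 2224 to 2956 FPKM with 5-HT and 2288 to 2294 FPKM without, above the Kupffer cell markers, with Lyve1 higher, Kdr lower (lost under 3 of 16 alternatives) and the abundant Clec4g, Stab2 and Cdh5 past the threshold in neither direction. None of 8 T cell markers (led by Trac, Lck, Cd3g and Cd3d), 6 hepatocyte markers (led by Alb, Apoa1, Ttr and Serpina1a) or 5 plasmacytoid dendritic cell markers (led by Bst2, Irf7, Siglech and Tcf4) passed the test. The part of these other cells in the V segment values was not tested.

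**Figure D4:**
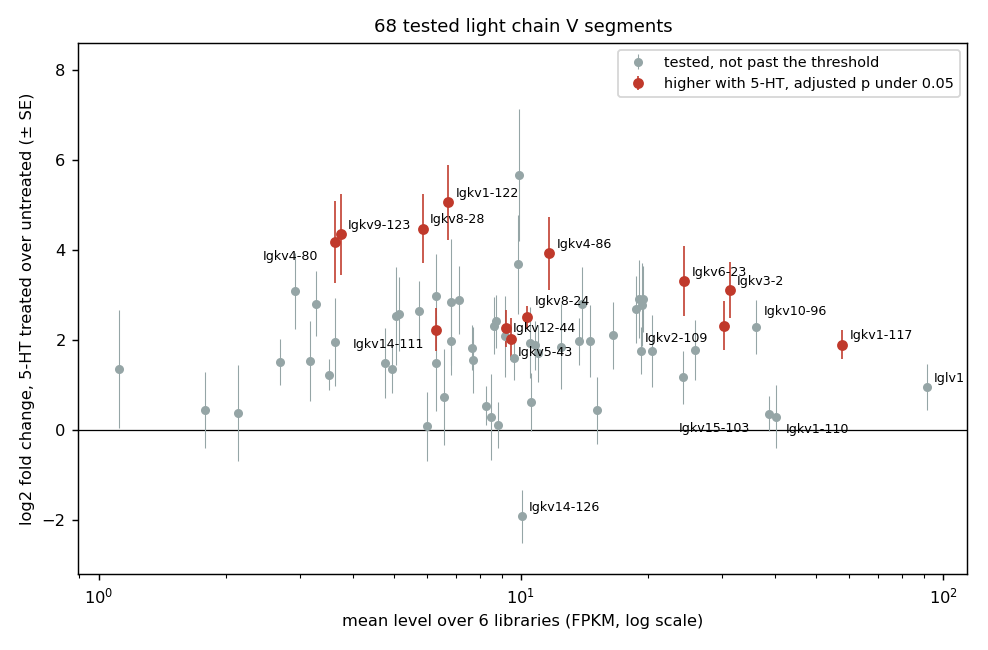
Log2 fold change of 5-HT treated over untreated (vertical axis, with the standard error) against the mean FPKM over 6 libraries (horizontal log axis) for the 68 tested segments; red points had an adjusted p under 0.05. Igkv1-122 lies at 5.05, Igkv8-24 has a short error bar at 2.498 and Igkv14-126 lies below 0 at -1.91.

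The most used segment, Iglv1 (ENSMUSG00000076934, chr16:19085017-19085500, minus strand), encodes the V region of most mouse lambda chains. It had 81.8, 204 and 76.0 FPKM with 5-HT, against 28.4, 95.1 and 64.2 FPKM in untreated libraries. The groups overlapped, since untreated replicate 2 lay above 5-HT treated replicates 1 and 3, and the log2 change of 0.96 ± 0.50 did not pass (adjusted p = 0.297). Its nearest copy, Iglv2 (ENSMUSG00000076940, chr16:19260401-19260859, minus strand), is 96.98% identical. Iglv2 had 37.6, 49.9 and 9.91 FPKM with 5-HT, against 1.65, 10.04 and 3.59 FPKM in untreated libraries. 5-HT treated replicate 3 lay just under untreated replicate 2, and the log2 change of 2.68 ± 0.74 did not pass (adjusted p = 0.0718).

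Igkv1-117 (ENSMUSG00000094335, chr6:68121046-68121827, plus strand), the most used kappa segment, rose with 5-HT. It had 81.9, 129 and 61.8 FPKM with 5-HT, against 31.0, 17.1 and 25.3 FPKM in untreated libraries, a log2 change of 1.89 ± 0.32 (adjusted p = 0.0148). The groups were well apart, and the call was lost without untreated replicate 1 or without untreated replicate 3 (adjusted p up to 0.0766). Its near copy Igkv1-110 (ENSMUSG00000093861, chr6:68270485-68271267, plus strand) had 25.0, 85.6 and 22.3 FPKM with 5-HT, against 12.5, 68.8 and 27.8 FPKM in untreated libraries. In both groups replicate 2 was high, the groups overlapped, and the log2 change was 0.30 ± 0.69 (adjusted p = 0.839). Igkv15-103 (ENSMUSG00000076523, chr6:68437440-68437925, plus strand) had 40.04, 68.8 and 22 FPKM with 5-HT, against 24.1, 41.7 and 36.3 FPKM in untreated libraries, with a log2 change of 0.36 ± 0.39 (adjusted p = 0.637). As a share of light chain V reads, however, Igkv15-103 had 3.46%, 2.65% and 3.57% with 5-HT, all below the 6.25%, 8.92% and 7.41% of untreated libraries. No close copy bears on it, since its nearest is 82.7% identical.

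Other abundant kappa segments had high values in single libraries. Igkv10-96 had 42.9, 117 and 20.4 FPKM with 5-HT, against 11.6, 9.17 and 16.1 FPKM in untreated libraries. The groups did not overlap, but 5-HT treated replicate 2 stood far above, and the log2 change of 2.28 ± 0.60 did not pass (adjusted p = 0.0636). Igkv2-109 was highest in 5-HT treated replicate 1, with 86.7, 48.6 and 15.96 FPKM with 5-HT, against 8.53, 13.2 and 8.56 FPKM in untreated libraries (log2 2.32 ± 0.55, adjusted p = 0.0479). Igkv6-23 had the same order, with 82.1, 44.2 and 6.66 FPKM with 5-HT, against 4.02, 4.61 and 4.69 FPKM in untreated libraries (log2 3.31 ± 0.78, adjusted p = 0.0473). In these 2 segments the treated libraries differed widely from each other, and the calls were lost under 10 and 9 of 16 alternatives. Igkv3-2 had 58.4, 89.2 and 20.4 FPKM with 5-HT, against 3.64, 4.50 and 11.3 FPKM in untreated libraries (log2 3.10 ± 0.62, adjusted p = 0.0282). Its groups did not overlap, and its call was lost under 5 of 16 alternatives. Igkv1-135 and Igkv6-15, which complete the 10 most used, overlapped between groups, with log2 changes of 1.17 ± 0.59 and 1.78 ± 0.67 that did not pass (adjusted p = 0.276 and 0.157).

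The steadiest call was that of Igkv8-24 (ENSMUSG00000076583, chr6:70216858-70217421, minus strand). It had 21.4, 17.6 and 13.8 FPKM with 5-HT, against 2.71, 3.46 and 3.16 FPKM in untreated libraries. Unlike most segments, it was not highest in 5-HT treated replicate 2, and its treated values lay within a narrow range. The log2 change was 2.498 ± 0.259 (adjusted p = 0.0026), and it passed under all 16 alternatives, with adjusted p up to 0.024. Its nearest copy is Igkv8-30, 90.96% identical.

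The largest changes among called segments belonged to segments with few untreated reads. Igkv1-122 (ENSMUSG00000095497, chr6:68016718-68017488, plus strand) had 14.1, 19.9 and 5.35 FPKM with 5-HT, against 0, 0.86 and 0.27 FPKM in untreated libraries, from 86, 117 and 35 reads with 5-HT and 0, 6 and 2 reads without. Its log2 change was 5.05 ± 0.82 (adjusted p = 0.0131). Igkv8-28 (ENSMUSG00000094356, chr6:70143593-70144166, minus strand) had 5.75, 22.7 and 5.22 FPKM with 5-HT, against 0.59, 0.59 and 0.28 FPKM in untreated libraries. Its log2 change was 4.47 ± 0.77 (adjusted p = 0.0158), and Igkv8-19, its nearest copy at 97.6% identity, had a log2 change of 0.29 ± 0.95 that did not pass. Both calls held in most alternatives and were lost in 3 of 16 for Igkv1-122 and 2 of 16 for Igkv8-28.

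Igkv9-123, Igkv4-80 and Igkv4-86 were also low in untreated libraries. Igkv9-123 had 5.31, 12.6 and 3.57 FPKM with 5-HT, against 0, 0.87 and 0.14 FPKM in untreated libraries (log2 4.34 ± 0.89, adjusted p = 0.0303). Igkv4-80 had 6.83, 11.2 and 2.69 FPKM with 5-HT, against 0.16, 0 and 0.91 FPKM in untreated libraries (log2 4.18 ± 0.91, adjusted p = 0.0356). No treated library of either came down to the untreated level. Igkv4-86 had 37.9, 19.6 and 8.20 FPKM with 5-HT, against 0.15, 1.45 and 2.64 FPKM in untreated libraries (log2 3.92 ± 0.81, adjusted p = 0.0304). The remaining 3 called segments had smaller changes, 2.26 ± 0.41 for Igkv12-44, 2.22 ± 0.48 for Igkv14-111 and 2.01 ± 0.46 for Igkv5-43, with adjusted p of 0.0203, 0.0337 and 0.042. Igkv5-43 is 98.4% identical to Igkv5-45. The calls of these 6 segments were lost under 2 to 6 of 16 alternatives, and each segment's groups were apart.

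A few segments did not share the common direction. Igkv14-126 (ENSMUSG00000094345, chr6:67896172-67896642, plus strand) had 3.32, 7.26 and 2.12 FPKM with 5-HT, against 22.1, 6.43 and 19.1 FPKM in untreated libraries. 5-HT treated replicate 2 lay above untreated replicate 2, so the groups overlapped, and the log2 change of -1.91 ± 0.59 did not pass (adjusted p = 0.0945). It passed as lower in 3 of 16 alternatives, among them the fit without untreated replicate 2. The tested segments nearest to no change were Igkv8-21 (log2 0.08), Igkv5-48 (0.12) and Igkv8-19 (0.29), and each overlapped. Igkv8-19 had 9.81, 15.8 and 2.37 FPKM with 5-HT, against 2.82, 18.7 and 1.56 FPKM in untreated libraries. Igkv6-14, picked out after its values were seen, had the largest fitted change of all tested segments, 5.66 ± 1.47, and did not pass (adjusted p = 0.0601), with 50.2 FPKM in 5-HT treated replicate 2 but 5.77 and 2.36 FPKM in 5-HT treated replicates 1 and 3 and 0 to 0.91 FPKM in untreated libraries.

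V segments are grouped into families by sequence, and the families took different shares. Igkv4, the largest with 25 segments, held 14.7%, 17.5% and 14.99% of light chain V reads with 5-HT, against 10.5%, 7.95% and 12.7% in untreated libraries. Igkv6, with 8 segments, held 12.2%, 9.49% and 7.34% with 5-HT, against 6.21%, 5.98% and 6.12%. These families and Igkv9 were higher in every treated library than in any untreated one. Of the 19 families, 3 were lower in every treated library. Igkv14 held 1.26%, 1.71% and 1.59% with 5-HT, against 6.40%, 2.16% and 4.38% in untreated libraries, and Igkv16, a single segment, held 1.07%, 0.507% and 0.684%, against 2.13%, 1.16% and 1.37%. The other was Igkv15, which is Igkv15-103 alone. With 3 of 19 families in either direction, these counts are near the share of all tested genes. By CPM, 15.5% of those genes were higher and 14.5% lower in every treated library. Igkv1, with 7 segments, held 15.1 ± 2.71% with 5-HT and 18.8 ± 4.003% without (SD, n = 3 each), and overlapped. Shares sum to a fixed total, so a higher share of some families goes with a lower share of others.

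Along the kappa locus, segments of either strand and at any distance were used. The 91 kappa segments lie 18.4 kb (Igkv3-1) to 3166 kb (Igkv2-137) upstream of Igkj1 (chr6:70722562-70722599, plus strand), the first joining segment, with 35 on the plus and 56 on the minus strand. Segments on the plus strand of GRCm38, which is the strand of Igkj1 and Igkc, join by deletion of the DNA between, and those on the minus strand by inversion. The plus strand segments held 49.1%, 45.0% and 50.6% of kappa V reads with 5-HT, against 51.8%, 61.9% and 52.7% in untreated libraries. Every treated value was lower, but the highest treated (50.6%) and lowest untreated (51.8%) values were close. The 27 segments over 2000 kb away held 41.9%, 39.1% and 47.7% with 5-HT, against 50.8%, 60.5% and 47.6% in untreated libraries, and overlapped by a narrow margin. The 30 segments at 1000 to 2000 kb held 20.9%, 25.2% and 20.3%, against 16.04%, 12.1% and 21.5%, and the 34 nearer ones 37.2%, 35.7% and 32.0%, against 33.2%, 27.4% and 30.9%, in 5-HT treated against untreated libraries. The called segments lay on both strands, 5 plus and 8 minus, and in all 3 stretches, 5 in the farthest, 2 in the middle and 6 in the nearest.

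**Figure D5:**
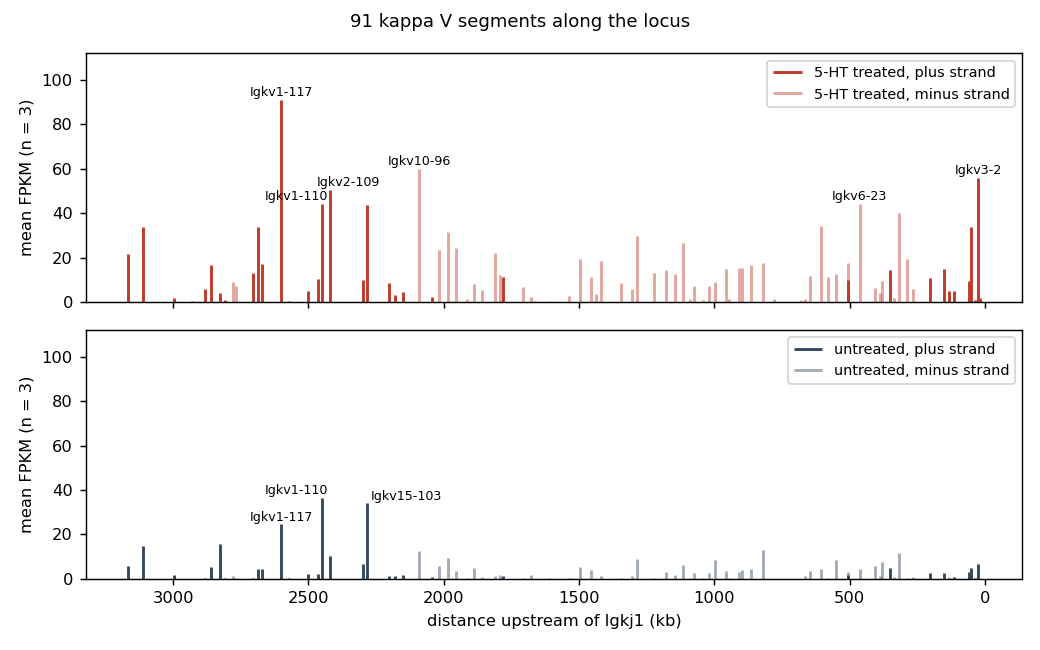
Mean FPKM (n = 3) of the 91 kappa V segments by distance upstream of Igkj1 in kilobases, 5-HT treated above and untreated below on the same scale; dark bars are plus strand and light bars minus strand segments. Igkv1-117 is the tallest bar with 5-HT (91.1 FPKM) and Igkv1-110 the tallest without (36.3 FPKM).

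The other genes of antibody production were followed through further lists. Over all tested genes 4.55% were higher and 3.19% lower. Of the 12 light chain constant and joining genes 8 were tested and none passed in either direction, with a median log2 change of 0.45. Igkc, Iglc1, Igkj3 and Igkj4 were the most abundant, and Iglj2 and Iglj3 were listed at 0. Of the 7 tested heavy chain constant genes 3 were higher and none lower, with a median of 3.27. Ighg3, the IgG3 constant region, had 26.0, 28.5 and 11.9 FPKM with 5-HT, against 0.15, 0.79 and 0.36 FPKM in untreated libraries (log2 5.68 ± 0.54, adjusted p = 0.0020), with the groups far apart. Ighg2c and Ighg2b, 2 further IgG constant regions that share much sequence, had log2 changes of 3.98 ± 0.66 and 3.34 ± 0.70 (adjusted p = 0.0142 and 0.0318), and the calls were lost under 2 and 6 of 16 alternatives. Ighm, the IgM constant region, had 545, 1181 and 240 FPKM with 5-HT, against 192, 164 and 196 FPKM in untreated libraries. Its groups did not overlap, but its log2 change of 1.83 ± 0.50 did not pass (adjusted p = 0.068). Ighg1 did not pass either (3.27 ± 0.82, adjusted p = 0.0551), and its groups did not overlap. Igha (1.11 ± 0.41, adjusted p = 0.146) and Ighd (-0.37 ± 0.58, adjusted p = 0.753) overlapped and did not pass.

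Genes that make or alter the V joint were near the lower limit. Of 9 surrogate light chain, recombination and mutation genes 2 were tested and neither passed, with a median log2 change of -0.79. Among the most abundant of them were Dntt, which adds bases at joints, Vpreb3 and Ung. Vpreb2 and Rag2, a recombinase subunit, were listed at 0.

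Among 13 factors that bind the octamer of V promoters or the kappa enhancers, 2 were higher with 5-HT and none lower, with a median of 0.28. They were Pou2f2, the octamer factor of B cells and macrophages (log2 1.26 ± 0.24, adjusted p = 0.0217, lost under 4 of 16 alternatives), and Rela, an NF-kappaB subunit active in most cells (0.61 ± 0.08, adjusted p = 0.0060). Spi1, Irf8 and Nfkb1, the next most abundant, did not pass. Of 14 genes of immunoglobulin assembly and secretion 7 were higher and none lower, with a median of 0.52. Hspa5, the chaperone that binds unpaired antibody chains and serves protein folding in all cells, had 385, 424 and 425 FPKM with 5-HT, against 196, 216 and 206 FPKM in untreated libraries (log2 1.01 ± 0.10, adjusted p = 0.0025). Its treated libraries were alike, unlike those of the V segments. Hsp90b1, Pdia6, Dnajb11, Sdf2l1, Creld2 and Manf were the others, of which Dnajb11 was lost under 2 of 16 alternatives, and Pdia4 did not pass (adjusted p = 0.0589).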

How the data were processed

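The authors deposited 1 table with raw read counts per gene and FPKM values for 56691 genes in 6 libraries. Per the labels' protocols, RNA was isolated with TRIzol, made into mRNA libraries and read on a NovaSeq instrument. HISAT2 2.2.1, featureCounts 2.0.1 and mm10 stand in the submitters' processing notes, without roles. The handling of multiply matching reads and of strand is not given in the sources. Of deposited FPKM values of at least 1, 100% matched the value from count, length and column total within 0.5% or rounding.

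The members and lists were chosen with earlier results of these data known. Positions and sequences are from GENCODE M21 on GRCm38 by gene identifier (93 of 93 found), because no deposited start equalled the GENCODE one. Groups were compared with edgeR 4.0.16 in R 4.3.3 (quasi-likelihood test, TMM factors, filterByExpr, Benjamini-Hochberg over 16641 genes, threshold 0.05), tested on simulated data. Genes were called at an adjusted p under 0.05: 757 higher and 531 lower. The fold changes are 5-HT treated over untreated. The SE of a log2 change was derived from the test, as the absolute log2 change over the square root of its F statistic. Other scalings, filters, DESeq2 1.42.0, limma 3.58.1 on log2(FPKM + 1) or log2(FPKM + 0.1), leaving out each library and a replicate block were alternatives. Shares used counts, and segment identities were found with BLAST 2.17.0.

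The segments named were the 10 with the largest mean share, the first of each library, the 10 largest rises and all falls among those called, the 3 tested nearest to 0, the lowest, both Iglv segments and those nearest the minimum of 10 reads. The other called segments, beyond these, were named for completeness. Of the lists, the 4 most abundant genes and those called were named, and of the heavy chain constant genes all 7 tested. Some list genes that this would name are not reported here. Total reads per library of 15390956 to 19050039 and 2626 to 14989 light chain V reads set the precision.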

Additional observations from a re-analysis of the deposited data

How the results depend on the processing

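The count of genes called, 1288, became 2259 with DESeq2 (1241 higher, 1018 lower) and 336 to 1337 when 1 library was left out, with 566 without 5-HT treated replicate 1, 336 without untreated replicate 1 and 339 without untreated replicate 3. The 13 called segments became 39 without the filter on low counts (1632 genes), 37 with DESeq2, and 1 to 28 when 1 library was left out. With the replicate number as a block, 896 genes and 8 segments were called. Same-numbered libraries correlated in their deviations from the group means at 0.0751, 0.0725 and -0.0121. The other pairs ran from -0.14 to 0.0921, the latter for 5-HT treated replicate 3 with untreated replicate 1. Such low values cannot decide whether same-numbered libraries were paired, which the labels do not state.

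Every alternative kept the direction of the summed CPM, from a log2 ratio of 0.99 without 5-HT treated replicate 2 to 2.07 without 5-HT treated replicate 3. The difference in the effective number of segments ran from 6.59 without untreated replicate 2 to 14.6 without untreated replicate 1. The difference in the share of the leading segment was -4.97 percentage points, and -7.89 to -1.62 when 1 library was left out. For the 5 leading segments together the difference was -10.2 percentage points with all 6 libraries. Log2 changes that crossed 0 when 1 library was left out ran from -0.60 to 1.13 for Igkv1-110, from -0.13 to 0.68 for Igkv15-103, from -0.32 to 0.75 for Igkv5-48, from -0.32 to 2.07 for Igkv8-19 and from -0.77 to 0.91 for Igkv8-21. The cause was not tested. Depth limits the rare segments: 25 of the 93 were without a read in at least 1 library, and 3 without a read in all untreated libraries. In alternatives chosen after seeing the data, the mean difference in expected segments at equal depth, 6.83, was 6.78 over all Igkv and Iglv rows and -0.0511 over the 69 segments with at least 10 untreated reads. The counts of higher and of separated segments without 1 library or over those 69 were also added then.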
